A study of Mus musculus with 8 samples.

Results

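The 9 genes described here encode proteins that bind, store, polyadenylate or translate messenger RNA in male germ cells. They are Ybx2, Ybx3, Tarbp2, Papolb, Pabpc1, Paip2, Fxr1, Boll and Dazl. They were found by gene symbol in the deposited table of whole-testis RNA, which lists 19906 genes, and each of the 9 symbols had 1 row. The table holds 8 libraries, with 4 from Tmem232-/- mice and 4 from Tmem232+/+ mice, all labelled as aged 2 months, from a line made in C57BL/6 mice. The knockout animals lack a fragment of Tmem232 from the germline on, after CRISPR-Cas9 deletion, so every cell of the body carries the change, and the males are sterile. The control animals carry no deletion. RNA came from the whole testis, so a level combines all cell types of that organ, and fewer cells of a type cannot be told apart from less RNA per cell.

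In the mouse testis, transcription stops when the spermatid condenses its chromatin. Transcripts for late proteins, such as the protamines that package sperm DNA, are therefore made early, held in ribonucleoprotein particles and translated days later. Y-box proteins coat and mask these transcripts, poly(A) polymerases and poly(A) binding proteins act on their tails, and DAZ family proteins bind the untranslated ends of germ cell transcripts and promote translation. The regulators themselves are made in spermatogonia, spermatocytes and round spermatids, before the step at which the stored transcripts are used.

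None of the 9 genes passed an adjusted p of 0.05 in edgeR's quasi-likelihood test, in which 10.3% of the 15787 tested genes were higher in the libraries labelled as Tmem232-/- and 1.46% were lower. The adjusted p follows Benjamini and Hochberg over all tested genes. At an unadjusted p of 0.05, 3 of the 9 passed, namely Papolb and Fxr1 with higher values and Dazl with lower values, beside 25.1% of all tested genes. DESeq2 called 1 member, Papolb, as higher, beside 10.3% of all genes it tested, and limma-voom called 0. The CPM values of the genotypes did not overlap for 1 member, Fxr1, beside 18.7% of all tested genes. CPM is the count of a gene scaled to a common library size after TMM normalization. The log2 fold changes of the members lay between -0.27 and 0.29, with a median of 0.01, while the median of all tested genes was -0.05. The standard error of a member's fold change was between 0.069 and 0.11, and no 95% interval reached above 0.50, for Papolb, or below -0.46, for Dazl.

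**Figure D1:**
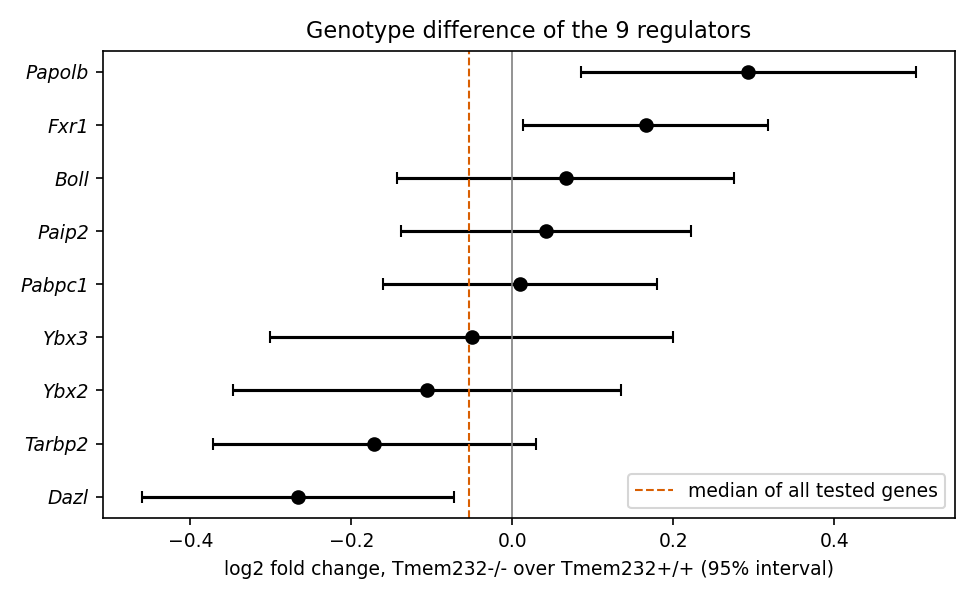
Log2 fold change of each regulator, libraries labelled as Tmem232-/- over those labelled as Tmem232+/+, with its 95% interval from edgeR; the dashed line marks the median of all tested genes at -0.05. The intervals of Papolb and Fxr1 lie above 0, that of Dazl lies below 0, and those of the other 6 genes hold 0.

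The 8 libraries had total counts between 15428421 and 16350871. Tmem232 itself was 131 ± 11.8 CPM in the libraries labelled as Tmem232-/- and 109 ± 2.08 CPM in those labelled as Tmem232+/+ (SD, n = 4 each), a log2 fold change of 0.27 at an adjusted p of 0.034, which was 0.086 to 0.089 without Tmem232-/- replicate 1 or 2 or Tmem232+/+ replicate 2 or 4. The total count of the deleted gene thus does not check the labels, and the groups are called by their labels throughout, with those labelled as Tmem232+/+ also called the controls. Every direction given here is that of the labels, and would turn if these had been exchanged. The library labelled as Tmem232+/+ replicate 3 stood apart from the other 3 of its group. Without it no member was called, and the log2 fold changes were 0.04 for Ybx2, 0.09 for Ybx3, -0.07 for Tarbp2, 0.29 for Papolb, 0.03 for Pabpc1, 0.13 for Paip2, 0.20 for Fxr1, 0.03 for Boll and -0.19 for Dazl. No 2 libraries of the same genotype agreed within sampling noise.

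Per length of transcript, the 9 genes fell into a group of 3 abundant ones and a group of 6 others. In FPKM averaged over the 8 libraries, Pabpc1 was at 1644, Ybx2 at 1336 and Ybx3 at 1112, and these ranked between 4 and 21 among all genes of every library. The next gene, Fxr1, was at 198 FPKM, and its highest library was below the lowest of Ybx3. Papolb followed at 193, Dazl at 135, Tarbp2 at 113, Boll at 103 and Paip2 at 91.8 FPKM. Apart from the step between Ybx3 and Fxr1, neighbours in this order overlapped in their range over the libraries, although Ybx2 exceeded Ybx3 within each of the 8 libraries and Dazl exceeded Tarbp2 in each of the 8.

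**Figure D2:**
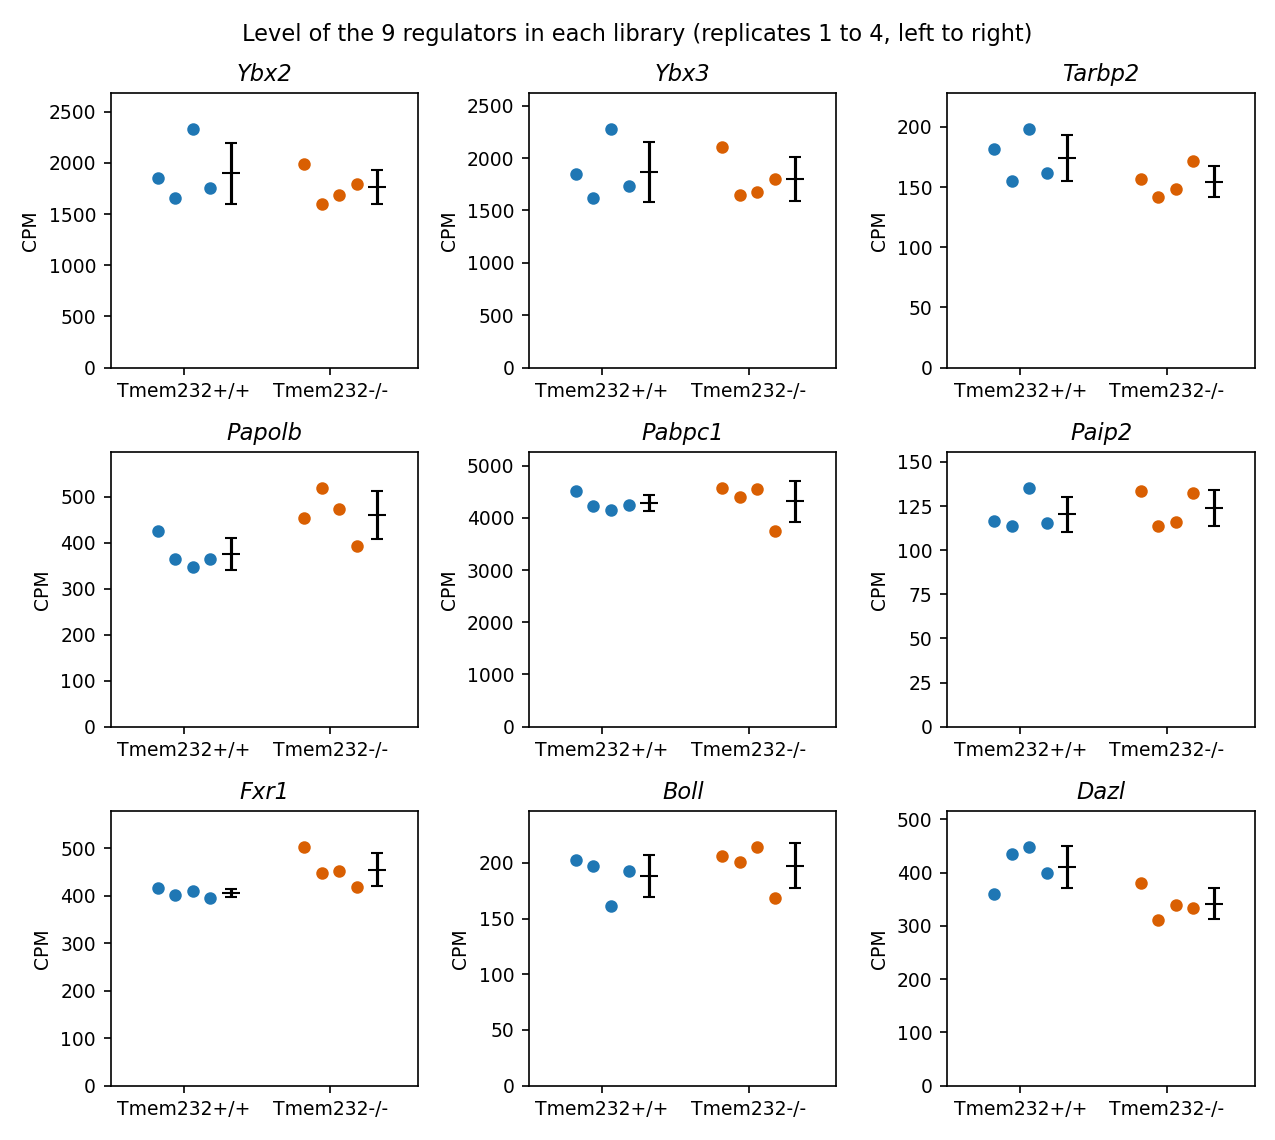
CPM of each regulator in the 8 libraries, with 1 point per mouse and the mean ± SD of each genotype beside the points (vertical axes start at 0 and differ between panels). The points of the genotypes overlap in every panel apart from that of Fxr1.

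Ybx2 and Ybx3 encode the Y-box proteins of germ cells, which bind RNA through a cold shock domain. Such proteins are named after the Y box of promoters, a sequence around an inverted CCAAT box. The promoters of 7 members were in the RefSeq table used here, with 9 windows of 300 bases in GRCm38.p6 from 250 bases before to 50 bases after a start. Those of Ybx2 and Ybx3 are shown because their transcripts moved together over the libraries, that of Boll because it held the full Y box, and that of Papolb because this gene had the largest fold change. Each is printed 5′ to 3′ on the strand of the gene, and capitals mark a match on either strand to CCAAT, whose reverse is ATTGG, or to the Y box CTGATTGG, whose reverse is CCAATCAG and which includes a CCAAT. The windows lie at chr11:69935649-69935948 on the plus strand for Ybx2, and on the minus strand at chr6:131388401-131388700 for Ybx3, at chr1:55362679-55362978 for Boll and at chr5:142530027-142530326 for Papolb.
Ybx2: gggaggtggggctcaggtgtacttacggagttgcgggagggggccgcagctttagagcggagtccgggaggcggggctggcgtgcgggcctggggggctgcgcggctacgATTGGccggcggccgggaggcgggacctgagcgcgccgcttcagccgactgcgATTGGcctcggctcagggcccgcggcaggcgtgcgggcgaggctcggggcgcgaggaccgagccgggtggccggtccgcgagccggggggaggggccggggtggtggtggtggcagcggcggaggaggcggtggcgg
Ybx3: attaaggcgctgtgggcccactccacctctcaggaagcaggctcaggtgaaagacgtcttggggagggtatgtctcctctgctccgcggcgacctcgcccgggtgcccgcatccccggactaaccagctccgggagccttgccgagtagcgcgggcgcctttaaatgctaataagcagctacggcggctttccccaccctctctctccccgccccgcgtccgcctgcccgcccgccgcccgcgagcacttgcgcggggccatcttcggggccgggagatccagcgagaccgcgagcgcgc
Boll: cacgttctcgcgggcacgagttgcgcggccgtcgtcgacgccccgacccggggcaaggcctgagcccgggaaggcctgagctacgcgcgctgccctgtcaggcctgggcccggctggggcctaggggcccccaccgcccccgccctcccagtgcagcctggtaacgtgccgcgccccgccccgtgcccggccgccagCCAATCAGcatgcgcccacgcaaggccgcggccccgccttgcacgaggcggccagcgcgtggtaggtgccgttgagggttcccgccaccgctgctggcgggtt
Papolb: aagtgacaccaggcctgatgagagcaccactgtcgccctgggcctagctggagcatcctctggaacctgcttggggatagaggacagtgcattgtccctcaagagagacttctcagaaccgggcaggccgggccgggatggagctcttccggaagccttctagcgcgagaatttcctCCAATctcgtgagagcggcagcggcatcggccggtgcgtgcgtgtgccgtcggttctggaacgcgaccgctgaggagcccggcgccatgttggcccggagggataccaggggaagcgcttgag

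The Ybx2 window printed above held 2 matches to the reversed CCAAT box. Another Ybx2 window, at chr11:69936078-69936377 on the plus strand and not printed, held none, and neither did the Ybx3 window. A CCAAT box on either strand was in 5 of the 9 windows, with 1 window each of Boll, Dazl, Papolb, Tarbp2 and Ybx2, and in 37.4% of all 32851 promoter windows of that length. The Y box was in 1 of the 9 windows, that of Boll, and in 4.10% of all windows. The palindrome TGACGTCA, known as the cAMP response element, was in 0 of the 9 windows and in 1.79% of all. These matches describe letters in the windows and were not tested for binding.

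Ybx2 (Entrez 53422), also known as MSY2, is required for the stability of stored transcripts in spermatids. Its gene spans chr11:69935834-69941604 in GRCm38.p6 and has 9 exons in its longest coding model. Replicates 1 to 4 labelled as Tmem232-/- were at 1986, 1602, 1683 and 1792 CPM, and those labelled as Tmem232+/+ at 1855, 1657, 2329 and 1760 CPM. The genotypes overlapped, and the highest value was in the Tmem232+/+ replicate 3. The means were 1766 ± 166 and 1900 ± 297 CPM (SD, n = 4 each), the log2 fold change was -0.11 (95% interval -0.35 to 0.14) and the adjusted p was 0.58. Without that library the fold change was 0.04 at an adjusted p of 0.82, so the sign of the difference rested on 1 library.

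Ybx3 (Entrez 56449), also known as MSY4, acts beside Ybx2 and is encoded at chr6:131364858-131388450. Its values were 2102, 1646, 1672 and 1798 CPM in the libraries labelled as Tmem232-/-, and 1850, 1618, 2275 and 1733 CPM in the others. They overlapped over nearly their whole range, and again the Tmem232+/+ replicate 3 was the highest. The means were 1805 ± 209 and 1869 ± 287 CPM (SD, n = 4 each), with a log2 fold change of -0.05 (95% interval -0.30 to 0.20) at an adjusted p of 0.82. When the Tmem232+/+ replicate 3 was left out, the fold change turned to 0.09 at an adjusted p of 0.60.

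The levels of both Y-box genes followed each other. Each gene varied by 1.45-fold (Ybx2) and 1.41-fold (Ybx3) between its lowest and highest library, whereas the CPM ratio of Ybx2 to Ybx3 stayed between 0.945 and 1.02. The ratio averaged 0.980 ± 0.027 in the libraries labelled as Tmem232-/- and 1.02 ± 0.010 in those labelled as Tmem232+/+ (SD, n = 4 each), and the genotypes overlapped. Over the 8 libraries the deviations of Ybx2 and Ybx3 from their genotype means had a Pearson r of 0.988, which is a description, since all genes of a library share its RNA and its scaling. Among 10388 genes compared with Ybx2 over the libraries, Ybx3 ranked 19 in likeness, and the genes most like Ybx2 were Ccdc130 (r = 0.988) and Pop4 (r = 0.988). Ybx1, the Y-box gene of somatic and germ cells, was at 1637 ± 152 and 1626 ± 170 CPM, a log2 fold change of 0.01 at an adjusted p of 0.96, and its sign turned with FPKM and with library size alone.

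Tarbp2 (Entrez 21357) encodes a protein that binds double-stranded RNA, works with Dicer and was also described as an activator of protamine translation. Its row is at chr15:102518192-102525093 on the plus strand and runs past the end of the annotated gene into Npff, a gene on the opposite strand, so its values may hold reads of that gene, and whether counting used strand is not given in the sources used here. The libraries labelled as Tmem232-/- had 157, 142, 149 and 171 CPM, and those labelled as Tmem232+/+ had 181, 155, 198 and 162 CPM. The Tmem232-/- replicate 4 lay above 2 of the control libraries, so the genotypes overlapped. Tarbp2 averaged 155 ± 12.8 and 174 ± 19.5 CPM (SD, n = 4 each), with a log2 fold change of -0.17 (95% interval -0.37 to 0.03) at an adjusted p of 0.27. Its fold change remained below 0 in all 16 alternative analyses, and none of them called it, but without Tmem232+/+ replicate 3, its highest library, the fold change was -0.07 at an adjusted p of 0.63.

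Papolb (Entrez 56522) encodes TPAP, a poly(A) polymerase of the spermatid cytoplasm that lengthens the tails of selected transcripts. It lies at chr5:142527740-142530076 on the minus strand, inside the span of Radil but without shared exon bases, and its coding sequence of 1926 bases is in 1 exon, as for 2.86% of the 15223 tested genes with an annotated model. The libraries labelled as Tmem232-/- had 454, 519, 474 and 394 CPM, against 426, 364, 346 and 366 CPM in the libraries labelled as Tmem232+/+. Of the former, 3 lay above all controls, and replicate 4 lay below the Tmem232+/+ replicate 1. The means were 460 ± 51.7 and 376 ± 34.9 CPM (SD, n = 4 each), and the log2 fold change of 0.29 (95% interval 0.08 to 0.50) was the highest of the 9. Its unadjusted p was 0.010, its adjusted p was 0.073, and the exact two-sided permutation test over all 70 arrangements gave p = 0.057. This gene was at the edge of the threshold. It passed with DESeq2 at an adjusted p of 0.017, and without the Tmem232-/- replicate 4 or the Tmem232+/+ replicate 1, with edgeR adjusted p-values of 0.016 and 0.026. Over all 16 alternatives the adjusted p lay between 0.016 and 0.21.

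Papola and Papolg, the polymerases of most other tissues, had fold changes nearer to 0 than Papolb, and a difference from it was not tested. Papola was at 240 ± 20.4 CPM in the libraries labelled as Tmem232-/- and 236 ± 9.56 CPM in the others (log2 fold change 0.02, adjusted p 0.90). Papolg was at 50.5 ± 3.97 and 52.6 ± 4.53 CPM (log2 fold change -0.06, adjusted p 0.70). The sign of both turned in some of the alternatives. Per length, Papolb was above Papola, with 210 against 58.5 FPKM on average in the libraries labelled as Tmem232-/- and 175 against 58.4 FPKM in those labelled as Tmem232+/+. Of 25 polymerases and cleavage factors, a list that holds Papola and Papolg, 4 were higher and 0 were lower, beside 10.3% and 1.46% of all tested genes. These were Tent5d (log2 fold change 0.84, adjusted p 0.0027), Tent5c (0.54, 0.0063) and Cstf2 (0.41, 0.0014), together with Pcf11 (0.29, 0.043), which was named after its value was seen and whose adjusted p rose to as much as 0.13 when Tmem232-/- replicate 1, 2 or 3 or Tmem232+/+ replicate 2 or 4 was left out, and whose call was also lost with FPKM. Tent5c and Tent5d encode noncanonical poly(A) polymerases, and Cstf2 and Pcf11 encode factors of cleavage at the end of the transcript. The median log2 fold change of the 25 was -0.03.

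Pabpc1 (Entrez 18458) encodes the main cytoplasmic poly(A) binding protein, which joins the tail to the translation machinery and is abundant in spermatocytes and round spermatids. The row spans chr15:36576453-36609581 on the minus strand, and runs past the 3′ end of the RefSeq gene, which is at 36595658. Its values may therefore hold reads from outside the gene. The libraries labelled as Tmem232-/- were at 4567, 4404, 4549 and 3742 CPM, and the controls at 4515, 4222, 4157 and 4250 CPM. The Tmem232-/- replicate 4 was the lowest of all and the other 3 were among the highest 4. The means of 4316 ± 389 and 4286 ± 157 CPM (SD, n = 4 each) gave a log2 fold change of 0.01 (95% interval -0.16 to 0.18) at an adjusted p of 0.95. Pabpc2 and Pabpc6 are near copies of this gene, so reads could have been split between them, and how such reads were counted is not given in the sources used here. Pabpc2 varied widely, from 528 to 973 CPM over the libraries, with a log2 fold change of 0.16 at an adjusted p of 0.58, or 0.06 without Tmem232+/+ replicate 3, its lowest library. Pabpc6 was at 588 ± 28.0 against 646 ± 23.2 CPM, a log2 fold change of -0.14 at an adjusted p of 0.21. The genes most like Pabpc1 over the 8 libraries were Ints13 (r = 0.978, and 0.904 without the 2 libraries farthest from the median) and Pkd2l2 (r = 0.971, and 0.917), and the member nearest to it was Boll, at rank 157 of 10388.

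Paip2 (Entrez 67869), on chromosome 18 from 35598606 to 35617185, encodes a repressor of translation that takes poly(A) binding protein from the tail. Its CPM values were 133, 114, 116 and 132 in the libraries labelled as Tmem232-/- and 117, 114, 135 and 116 in the others, so both genotypes covered the same range. Its log2 fold change was 0.04 (95% interval -0.14 to 0.22), the adjusted p was 0.78 and the genotypes had means of 124 ± 10.4 and 120 ± 9.91 CPM (SD, n = 4 each). Its relative Paip2b was at 58.1 ± 4.22 and 55.9 ± 4.68 CPM (adjusted p 0.70). Of 13 tested genes of poly(A) binding proteins and their partners, 1 was higher and 0 were lower, beside the same 10.3% and 1.46%, and their median log2 fold change was -0.09. The gene that rose was Pabpc1l, the poly(A) binding protein known from oocytes, at 1.48 ± 0.324 against 0.419 ± 0.273 CPM (log2 fold change 1.80, adjusted p 0.014). Its level was low next to that of Pabpc1, at 0.693 against 1634 FPKM in the libraries labelled as Tmem232-/-.

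Fxr1 (Entrez 14359) encodes an RNA binding protein of the fragile X family that activates stored transcripts in late spermatids by forming condensates. It lies at chr3:34020058-34069980 with 17 exons in its longest coding model, and 2.72% of its exon bases overlap genes of the opposite strand. The libraries labelled as Tmem232-/- had 502, 448, 452 and 417 CPM, and the controls had 415, 400, 410 and 395 CPM. Every library labelled as Tmem232-/- lay above every control, although the gap between replicate 4 of the former and replicate 1 of the latter was narrow. The means were 455 ± 35 and 405 ± 9.10 CPM (SD, n = 4 each), a log2 fold change of 0.17 (95% interval 0.01 to 0.32). Its unadjusted p was 0.035 and its adjusted p was 0.16, while the exact permutation test gave p = 0.029, the smallest that 70 arrangements allow. Leaving out the Tmem232-/- replicate 4 moved the fold change to 0.22 and the adjusted p to 0.047, and over all 16 alternatives the adjusted p lay between 0.047 and 0.35.

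The other members of the fragile X family had fold changes of the opposite sign. Fxr2 was at 136 ± 3.86 CPM in the libraries labelled as Tmem232-/- and 155 ± 9.25 CPM in the others, without overlap, with a log2 fold change of -0.19 (95% interval -0.33 to -0.05) at an adjusted p of 0.090. Fmr1 was at 55.1 ± 3.94 and 62.6 ± 5.45 CPM (log2 fold change -0.18, adjusted p 0.18). Their signs were the same in all 16 alternatives, but Fmr1 passed in none of them and Fxr2 only with FPKM and with library size alone (adjusted p from 0.032 to 0.40). A difference between the fold changes of the 3 genes was not tested. In the list of 17 relatives that bind double-stranded RNA or belong to the Y-box and fragile X families, 0 passed, and the median was -0.15. Of the 17, 7 had an unadjusted p under 0.05, beside 25.1% of all tested genes. DESeq2 called 1 of them, Adad1, and limma-voom called 0.

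Boll (Entrez 75388) encodes BOULE, the oldest member of the DAZ family, which spermatids need in order to elongate. The row gives chr1:55248711-55364059 on the plus strand, whereas the annotation places the gene on the minus strand, so the values of this row may not be those of Boll alone. Values of 207, 201, 214 and 168 CPM were measured in the libraries labelled as Tmem232-/-, and 203, 198, 161 and 193 CPM in the controls. The lowest library of each genotype, replicate 4 and replicate 3 respectively, stood below the rest, and the others were alike. The means of 198 ± 20.2 and 189 ± 18.8 CPM (SD, n = 4 each) gave a log2 fold change of 0.07 (95% interval -0.14 to 0.28) at an adjusted p of 0.70.

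Dazl (Entrez 13164), at chr17:50279393-50293620 on the minus strand, encodes the DAZ family protein of spermatogonia and spermatocytes, which binds the 3′ ends of germ cell transcripts and promotes their translation. The libraries labelled as Tmem232-/- had 381, 310, 340 and 334 CPM, and those labelled as Tmem232+/+ had 359, 436, 448 and 399 CPM. Of the 4 former, 3 lay below every control, and replicate 1 lay above the Tmem232+/+ replicate 1. The means were 341 ± 29.3 and 411 ± 39.9 CPM (SD, n = 4 each), and the log2 fold change of -0.27 (95% interval -0.46 to -0.07) was the lowest of the 9. The unadjusted p was 0.012, the adjusted p was 0.081 and the exact permutation p was 0.057. Its fold change lay between -0.32 and -0.19 in the 16 alternatives, with adjusted p-values from 0.052 to 0.32. Among 3 known targets of DAZL, 0 passed in edgeR, DESeq2 or limma-voom, and 1 had an unadjusted p under 0.05, beside 25.1% of all tested genes. Sycp3, a protein of the meiotic chromosome axis, had a log2 fold change of -0.26 (adjusted p 0.18), or -0.14 (adjusted p 0.44) without Tmem232+/+ replicate 3, its highest library. Tex19.1 had -0.12 (adjusted p 0.71) and the helicase gene Ddx4 had 0.08 (adjusted p 0.645). With 1 library left out, Tex19.1 lay between -0.243, without Tmem232+/+ replicate 3, and -0.0072, without Tmem232+/+ replicate 1, and Ddx4 between 0.041 and 0.177, and none of these fits called them.

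Within each genotype, the 9 genes did not vary as 1 group. In the libraries labelled as Tmem232-/-, replicate 1 was above its genotype mean for 8 of the 9 genes, and among the controls replicate 4 was below its mean for 8 of the 9. The Tmem232+/+ replicate 3 was the highest library of all for Ybx2, Ybx3, Tarbp2, Paip2 and Dazl and the lowest for Papolb and Boll. Its deviations on the log2 scale reached 0.31 for Ybx2 and -0.22 for Boll. Replicate 4 labelled as Tmem232-/- was the lowest of its genotype for Papolb, Pabpc1, Fxr1 and Boll and the highest for Tarbp2. Deviations of Boll and Pabpc1 went together (r = 0.831), as did those of Ybx2 and Paip2 (r = 0.915), whereas Boll and Paip2 went opposite ways (r = -0.734). These are descriptions over 8 libraries that share their scaling.

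**Figure D3:**
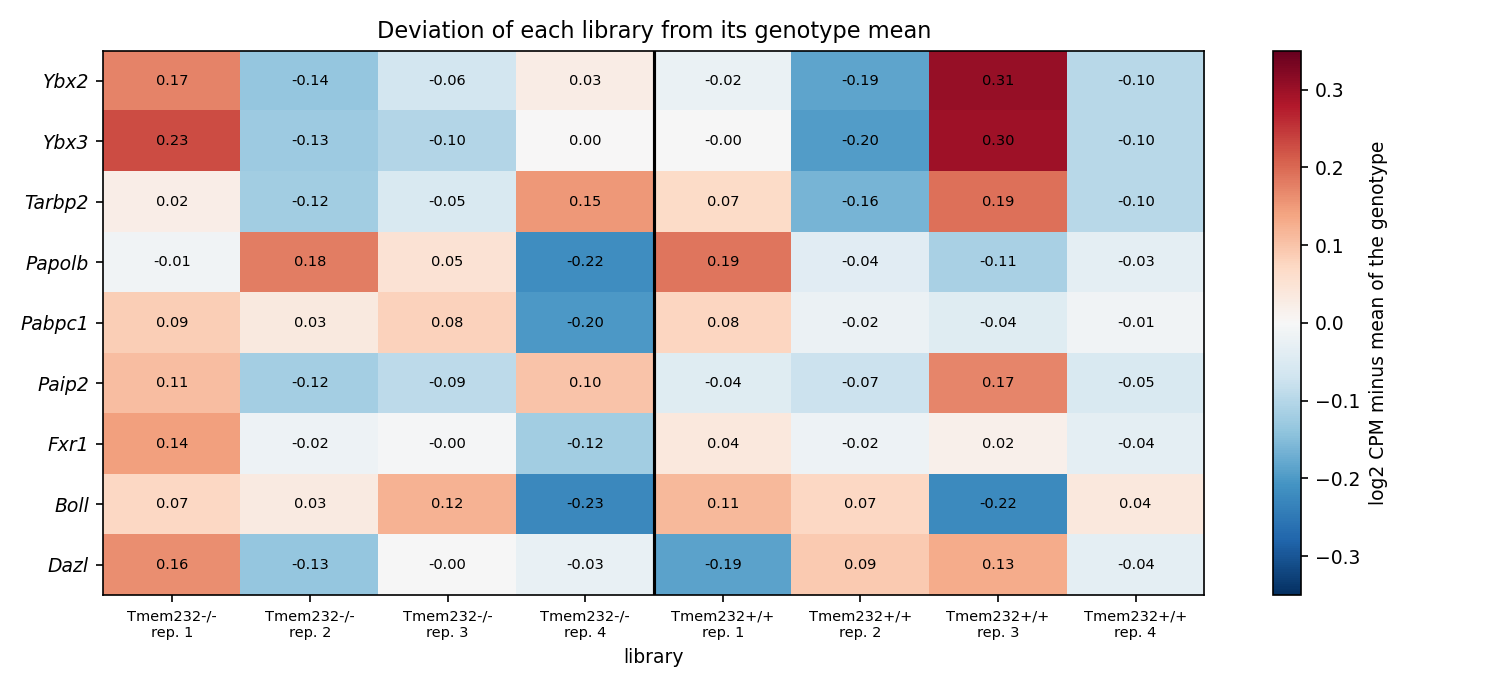
Deviation of log2 CPM from the mean of the genotype for each regulator (rows) and library (columns), with red above and blue below the mean. Ybx2 and Ybx3 show nearly the same pattern, and the column of Tmem232+/+ replicate 3 is high for Ybx2, Ybx3, Tarbp2, Paip2 and Dazl and low for Boll and Papolb.

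All 12 listed stored transcripts of spermatids rose in the libraries with the label Tmem232-/-. This list was written from general knowledge with earlier results known, and is not a set shown to be bound by the 9 proteins. The count stands beside 10.3% of all tested genes, and the median log2 fold change of the 12 was 1.55, against 0.01 for the 9 regulators. The protamine gene Prm1 was at 122, 85.4, 44.3 and 132 CPM in the libraries labelled as Tmem232-/- and at 4.86, 1.63, 7.54 and 4.18 CPM in those labelled as Tmem232+/+. Protamine transcripts are known as abundant in the adult testis. In the libraries labelled as Tmem232+/+, Prm2, Prm3, Tnp1 and Tnp2 averaged 6.44, 6.86, 5.95 and 16.6 CPM. There, Smcp, Akap4, Odf1, Gapdhs, Pgk2, Oaz3 and Ace averaged between 50.1 CPM, for Ace, and 255 CPM, for Pgk2. The cause of the low protamine level was not tested, and the labels of age and genotype could not be checked. Prm2 (log2 fold change 4.44, adjusted p 4.8e-05), Prm1 (4.40, 4.2e-05) and Tnp2 (3.86, 0.000115), a transition protein gene, rose most, and Pgk2 (0.51, 0.00072) rose least. Between them were Tnp1, with a log2 fold change of 3.54, Akap4 with 1.67, Oaz3 with 1.61, Gapdhs with 1.49, Smcp with 1.38, Odf1 with 1.33, Prm3 with 1.28 and Ace with 1.08. Prm3 (adjusted p 0.017) was the exception when a library was left out, at an adjusted p of 0.059 without Tmem232-/- replicate 1. The sum of the 12 transcripts divided by the sum of the 9 regulators, both in FPKM, was 0.730, 0.652, 0.450 and 0.824 in replicates 1 to 4 labelled as Tmem232-/-. It was 0.144, 0.120, 0.191 and 0.164 in the controls. The groups did not overlap in this ratio, while the summed FPKM of the regulators alone was between 4631 and 5214 in the former and between 4732 and 5633 in the latter. Most of that sum came from Pabpc1, Ybx2 and Ybx3, at 1644, 1336 and 1112 FPKM on average over all libraries.

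**Figure D4:**
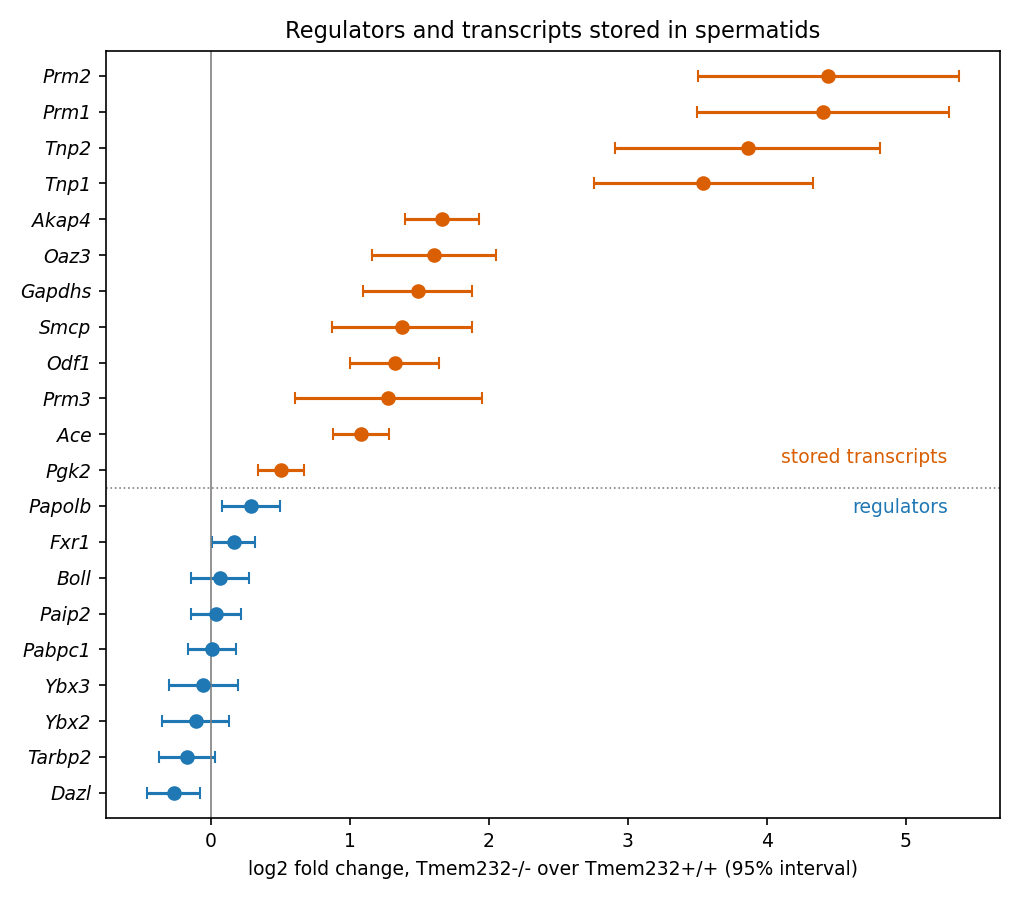
Log2 fold change with its 95% interval from edgeR for the 9 regulators (blue) and the 12 transcripts stored in spermatids (orange), libraries labelled as Tmem232-/- over those labelled as Tmem232+/+. Each stored transcript lies to the right of every regulator, from 0.51 for Pgk2 to 4.44 for Prm2, and the regulators lie between -0.27 and 0.29.

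Markers of spermatids rose, and most markers of earlier germ cells were not called. The counts below stand beside the 10.3% of all tested genes that were higher and the 1.46% that were lower. All 13 markers of elongating spermatids rose, with a summed level of 1422 to 2360 CPM in the libraries labelled as Tmem232-/- and 351 to 720 CPM in the controls. Of these markers 10 are also among the stored transcripts. Of 12 markers of round spermatids 10 rose and 0 fell (1151 to 1406 against 675 to 931 CPM). Of 10 markers of spermatogonia 0 rose and 4 fell, namely Uchl1, Stra8, Sall4 and Sohlh1 (252 to 283 against 302 to 335 CPM), and of 13 markers of spermatocytes 1 rose, Pgk2, which is also a stored transcript, and 1 fell, Dmc1 (2816 to 3594 against 3131 to 3411 CPM). Of the spermatogonia markers 2 had a positive log2 fold change, and the median was -0.35. An unadjusted p under 0.05 was found for 7 of them, beside 25.1% of all tested genes, and 4 did not overlap, beside 18.7%. The spermatocyte markers had a median of -0.10, with 4 at an unadjusted p under 0.05 and 2 without overlap. The sum for Sertoli cells was 1841 to 2348 against 2147 to 2268 CPM, with 0 of 12 called, and that for Leydig cells was 481 to 711 against 308 to 540 CPM, with 0 of 8 called. Of the Leydig cell markers 7 of 8 had a positive log2 fold change, the median was 0.41, 5 had an unadjusted p under 0.05, beside 25.1% of all tested genes, and 2 did not overlap between the genotypes, beside 18.7%. The counts at an unadjusted p were 2 of 12 for Sertoli cells, 0 of 9 for macrophages, 1 of 7 for endothelial cells and 1 of 6 for red blood cells. Of 7 markers of peritubular myoid cells 1 rose and 3 fell (253 to 300 against 289 to 350 CPM), with a median of -0.35, 6 at an unadjusted p under 0.05 and 4 without overlap, and none of the lists for macrophages, endothelial cells and red blood cells had a called gene. In the epididymis list 1 of 3 tested genes, Cst8, was higher, and the log2 fold changes of the 3 lay between -2.54 and 1.86, at a summed level of 28.8 to 50.5 against 11.7 to 47.3 CPM. Of 9 listed epididymis markers 7 were in the table. No marker with a row in the table was at 0 in all libraries. The part of these shifts in the values of Papolb, Fxr1, Dazl and the stored transcripts was not tested.

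Of the other lists of translational control, most genes did not pass. In the CPEB, PUF, NANOS and Musashi families, which bind the 3′ ends of transcripts, 2 of 10 tested genes were higher and 0 lower, beside 10.3% and 1.46% of all tested genes. Cpeb3 was at 18.6 ± 1.05 against 9.09 ± 0.927 CPM (log2 fold change 1.03, adjusted p 4.9e-05), and Cpeb2 was at 373 ± 35.4 against 263 ± 15.0 CPM (0.50, 0.0013). DESeq2 called 4 of the 10, adding Cpeb4 and Msi2. In edgeR, 6 of the 10 had an unadjusted p under 0.05, beside 25.1% of all tested genes. The genotypes did not overlap for 4 of them, beside 18.7%. Among 30 deadenylases and decay factors 0 passed in edgeR, DESeq2 or limma-voom, and the median was -0.06. Of the 30, 9 had an unadjusted p under 0.05, beside 25.1% of all tested genes. Among 27 other RNA binding proteins of male germ cells 0 were higher and 2 were lower, Ythdf2 (log2 fold change -0.28, adjusted p 0.0080) and Ythdf1 (-0.28, 0.018), which encode readers of methylated adenosine in RNA. Ythdf1 was between 0.059 and 0.098 in adjusted p without Tmem232-/- replicate 1 or 2 or Tmem232+/+ replicate 1, 2 or 4. With the replicate block neither was called, at adjusted p-values of 0.105 for Ythdf2 and 0.161 for Ythdf1.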

How the data were processed

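The authors sequenced cDNA libraries from whole testis, 1 per mouse (4 Tmem232-/- and 4 Tmem232+/+), in pairs of reads. They mapped reads to GRCm38.p6 with HISAT and Bowtie2, quantified genes with StringTie and featureCounts, and tested with DESeq2. Between 10.7% and 11.2% of the estimated counts deposited by the authors were not whole in a library, and they were rounded. The FPKM values deposited by the authors were used to compare genes of different length. The authors' own fold changes, p-values and q-values, also in the table, were not used. The 9 members and all lists were chosen with earlier results of these data known.

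Counts were analysed with edgeR 4.0.16 in R 4.3.3 (default low-count filter, TMM scaling, quasi-likelihood test, no covariates, Benjamini-Hochberg over 15787 genes), and intervals are 95%. Each member was also tested by an exact two-sided permutation test over 70 arrangements. Alternatives used DESeq2 1.42.0, its size factors, library size alone, limma 3.58.1 (voom, or log2 of FPKM plus 1), no filter, at least 10 counts in every library, a replicate block, and fits that left out 1 library at a time. Likeness over libraries was computed for Pabpc1 and Ybx2, the members with the highest mean FPKM, among tested genes with a mean of at least 10 CPM. Besides the members and their paralogs, up to 3 called genes of a list were named by the largest absolute fold change, given at least 1 CPM on average. The lists of stored and DAZL-bound transcripts were named in full. The scripts were tested on simulated data. The members had between 1812 and 72458 counts per library.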

Additional observations from a re-analysis of the deposited data

Results flagged for a closer look

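Among 18 sets of 4 libraries (9 genes in each genotype), 1 held a library far from the others by Dixon's test. Paip2 was at 135 CPM in the library labelled as Tmem232+/+ replicate 3, against 114 to 117 CPM in the other 3, and the gap was 0.873 of the range. About 0.9 such cases are expected by chance in 18 sets. Without that library the log2 fold change of Paip2 was 0.13 in place of 0.04.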

How the results depend on the processing

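The number of members called as higher was 0, and it was 1 with DESeq2 and 1 without a filter (Papolb in each case) and between 0 and 2 when 1 library was left out. Papolb had a log2 fold change of 0.32 with DESeq2 and 0.34 without a filter, and between 0.23 and 0.40 with 1 library left out. Leaving out 1 library gave 0.12 to 0.22 for Fxr1, -0.167 to 0.038 for Ybx2, -0.132 to 0.089 for Ybx3 and -0.018 to 0.085 for Pabpc1. Pabpc1 was at -0.021 and Paip2 at -0.013 with FPKM, and Pabpc1 at -0.025 with library size alone. Ybx1 was at -0.023 with FPKM, -0.025 with library size alone and -0.059 to 0.102 with 1 library left out, Papola at -0.017 with library size alone and -0.014 to 0.090, and Papolg at -0.103 to 0.014. Dazl, Tarbp2 and Boll kept their direction in all 16 alternatives. The cause of these shifts was not tested.

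The CPEB list had 4 called genes with DESeq2 size factors, with DESeq2 and without a filter, and 2 to 4 with 1 library left out. The relatives of the Y-box and fragile X families had 1 with DESeq2 size factors, DESeq2, FPKM or no filter, 2 with library size alone and 0 to 1 with 1 library left out. Deadenylases had 2 with FPKM and 1 with library size alone. With a minimum of 10 counts in every library Pabpc1l was not tested, which left 0 poly(A) binding proteins. The other RNA binding proteins had 4 with FPKM, 0 with the replicate block and 1 to 3 with 1 library left out. Over all genes, 1633 were higher and 230 lower, and the lower ones were 131 with DESeq2 size factors, 466 with FPKM, 415 with library size alone, 71 without a filter and 37 to 356 with 1 library left out.

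With the replicate block 1426 genes were higher and 23 lower, and no member was called. The block ended the calls of Tmem232, Pcf11, Ythdf2 and Ythdf1, with adjusted p-values of 0.082, 0.108, 0.105 and 0.161. Ythdf1 was at 0.057 without a filter. Same-numbered libraries had correlations of -0.138, 0.156, -0.464 and -0.156 between their deviations. Those of differently numbered libraries lay between -0.42 and 0.503. These values cannot show whether the numbers paired the animals. The members had at least 1812 counts in every library, and their coefficient of variation between libraries of a genotype was between 2.24% and 15.6%.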

Other observations

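In rank by FPKM, the ranges of the genotypes overlapped for each of the 9 regulators and for none of the 12 stored transcripts. Ybx2 ranked 9 to 15 in the libraries labelled as Tmem232-/- and 7 to 14 in those labelled as Tmem232+/+. Prm1 ranked 93 to 429 in the former and 3411 to 8481 in the latter, Tnp2 ranked 37 to 194 and 1360 to 5212, and Smcp, which encodes a protein of the sperm mitochondrial capsule, ranked 83 to 157 and 319 to 758. The gap was narrower for Pgk2, at 281 to 354 and 446 to 563. Protamine and transition protein transcripts are known as abundant in adult testis, and in the libraries labelled as Tmem232+/+ all of Prm1, Prm2 and Tnp1 lay below each of the 9 regulators.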
